A study of Mus musculus with 31 samples.

Results

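Cells remove superoxide and peroxides with a small set of enzymes, and the transcripts of 10 of them were measured here in single mouse embryos at the 2-cell stage. The genes were chosen by name, as the peroxiredoxins Prdx1, Prdx2, Prdx3, Prdx4, Prdx5 and Prdx6, the cytosolic thioredoxin gene Txn1, the superoxide dismutases Sod1 and Sod2, and catalase (Cat). They are 10 of the 20544 genes in the count table, and all 10 had at least 1 count. Prdx2 was the most abundant of them per length of exons, Cat was hardly detected, and Prdx4 had no count in 1 embryo of each group.

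Superoxide leaks from the respiratory chain and is turned into hydrogen peroxide by superoxide dismutase, which is SOD1 in the cytosol and SOD2 in the mitochondrial matrix. Peroxiredoxins then reduce hydrogen peroxide with a reactive cysteine and are themselves reduced by thioredoxin, whereas catalase breaks down hydrogen peroxide in peroxisomes without a reducing partner. The oocyte loads the embryo with stored RNA of such housekeeping enzymes, and most of that RNA is degraded while the embryonic genome starts transcription at the 2-cell stage.

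The embryos came from in vitro fertilization (IVF) with sperm that had or had not gone through sperm energy restriction and recovery (SER). C57BL/6J males of 12 to 14 weeks gave both kinds of sperm, since 1 cauda epididymis went into medium with glucose and pyruvate (control, 16 embryos) and the other into medium lacking both (SER, 15 embryos). The SER sperm were kept there until they stopped moving, which took 15 to 45 min, and both kinds were then returned to complete medium and placed for 4 h with cumulus-oocyte complexes of superovulated CD1 females of 8 to 10 weeks. Embryos were lysed 1 by 1 at 32 h after insemination, and 1 Smart-seq3 library of polyadenylated RNA was made from each. All embryos are labelled wild type and share the IVF, the hormone treatment and the 2 parental strains. The study made its libraries in 3 batches of control- and SER-generated embryos. The labels do not say which embryo was in which batch or which embryos had the same father. Batch and father could therefore not be fitted, and their part in a difference between groups is not known. P-values measure the spread between embryos.

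The sequences just before the start sites of 4 genes are shown because these genes fall into pairs that behaved differently in the embryos described below: Prdx1 and Prdx2, and Prdx4 and Prdx5. They were chosen after their levels had been seen. RefSeq starts on GRCm38.p6 were found for 9 of the 10 genes, all except Prdx6. Each sequence is the 250 bases before the start, 5′ to 3′ on the strand of the gene, and capitals mark matches on either strand to the antioxidant response element TGACNNNGC, the CCAAT box or the GC box GGGCGG.
Prdx1, chr4:116685349-116685598, plus strand: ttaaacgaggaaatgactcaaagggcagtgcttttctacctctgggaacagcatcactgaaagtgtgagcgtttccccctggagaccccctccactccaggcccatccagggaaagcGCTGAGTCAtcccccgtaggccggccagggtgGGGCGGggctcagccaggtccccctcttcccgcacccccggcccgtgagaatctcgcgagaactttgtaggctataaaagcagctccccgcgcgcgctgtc
Prdx2, chr8:84969372-84969621, plus strand: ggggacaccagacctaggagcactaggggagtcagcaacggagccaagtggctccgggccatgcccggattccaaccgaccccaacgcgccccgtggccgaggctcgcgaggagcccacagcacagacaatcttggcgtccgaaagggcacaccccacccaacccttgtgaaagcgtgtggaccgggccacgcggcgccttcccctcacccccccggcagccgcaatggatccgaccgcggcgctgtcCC
Prdx4, chrX:155338461-155338710, minus strand: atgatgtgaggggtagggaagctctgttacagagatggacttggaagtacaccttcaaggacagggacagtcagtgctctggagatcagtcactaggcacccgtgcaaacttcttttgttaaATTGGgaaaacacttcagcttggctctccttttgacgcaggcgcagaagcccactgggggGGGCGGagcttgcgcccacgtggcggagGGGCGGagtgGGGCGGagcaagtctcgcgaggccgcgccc
Prdx5, chr19:6910107-6910356, minus strand: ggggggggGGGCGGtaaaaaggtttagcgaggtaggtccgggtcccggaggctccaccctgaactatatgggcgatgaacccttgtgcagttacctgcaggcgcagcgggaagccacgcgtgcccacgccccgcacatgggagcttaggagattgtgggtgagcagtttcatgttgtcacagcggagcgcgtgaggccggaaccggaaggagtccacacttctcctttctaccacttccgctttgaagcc
The antioxidant response element, the sequence to which the oxidant-responsive factor NFE2L2 binds, matched 133 bases before the start of Prdx1 (GCTGAGTCA, the match on the other strand) and was not found in the windows of Prdx2, Prdx4 or Prdx5. Of the other genes, Sod1 held a match 56 bases before its start (GCGTGGTCA, again on the other strand). This motif occurs in 12.4% of 32851 promoters of the same length. Prdx4 held 1 CCAAT box, found in 37.4% of promoters, and 3 GC boxes, the last of them 30 bases before the start. A GC box occurs in 35.7% of promoters, and that of Prdx2 runs across the start, so that only its first 2 bases are in capitals. These windows run from 250 bases before to 50 after the start, and the matches are matches of letters only.

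The libraries held 532945 to 2085222 counts in control and 642321 to 3088396 in SER embryos, and the log2 total was 0.59 higher in SER embryos (permutation p = 0.0188). Levels are given as CPM, the counts of a gene scaled to the counts of the library, so less RNA of a gene and more RNA of other genes cannot be told apart. All 12 oocyte markers were detected in the set, their sum ranging from 1343 to 6306 CPM in control and from 723 to 6471 CPM in SER embryos. The 29 genes of zygotic activation in the table, such as Zscan4c and Zfp352, summed to 436 to 6343 CPM and 627 to 5475 CPM. Markers of other cells were low with single exceptions. Cumulus cell markers summed to 3643 CPM in control replicate 5, against at most 131 CPM in the other control embryos and 20.2 CPM in SER embryos. Most of that sum was Hsd3b1 (2071 CPM) and Cyp11a1 (1423 CPM). Has2, Ptgs2, Ptx3 and Tnfaip6 of the same list reached at most 1.57, 9.59, 4.67 and 7.67 CPM in any embryo. Macrophage markers, of which 7 of 7 were detected over all embryos, reached 180 CPM in SER replicate 13, 52.8 CPM in the next SER embryo and 43.1 CPM in control embryos. Most of the sum in SER replicate 13 was Cd68 (98.3 CPM) and Lyz2 (53.5 CPM), while Ptprc, Csf1r and Adgre1 were each detected in only 2 embryos. All haemoglobin genes were at 0, the 2 red cell markers that were detected summed to at most 5.46 and 8.40 CPM, and sperm markers (7 of 8 detected, Crisp2 at 0) to at most 24.1 and 30.9 CPM. Control replicate 4 and SER replicate 15 stood apart from the other 29 embryos, with the lowest sums of zygotic genes (436 and 627 CPM). Results are therefore also given without them.

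Prdx2, the peroxiredoxin of the cytosol best known from red blood cells, was the most abundant of the 10 genes. Its level ranged from 150 to 2935 CPM over the 31 embryos with a median of 521 CPM, which placed it at percentile 99.0 of all genes in the table. Divided by the length of its exons, merged over all annotated transcripts, its median was 171 CPM per kb. Next came the cytosolic relative Prdx1 with 64.8 CPM per kb and Prdx4, the peroxiredoxin of the endoplasmic reticulum, with 62.7 CPM per kb. Merged exons can be longer than any single transcript, so the order per kb depends on the annotation. Prdx2 was above Prdx1 per kb in 29 of 31 embryos, and the mean log2 difference of 1.27 was larger than its SD of 0.858. Prdx1 and Prdx4 could not be ordered, since Prdx1 was above in 16 of 31 embryos.

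Prdx5, which works in mitochondria, peroxisomes and cytosol, had a median of 33.8 CPM per kb and lay below Prdx4 in 27 embryos, with a mean log2 difference of 0.58 and an SD of 1.52. Sod2 (20.8 CPM per kb), Txn1 (18.9), Sod1 (17.8) and Prdx6 (13.0), whose enzyme takes its electrons from glutathione, came next, and no neighbours among these 4 differed by more than the SD between embryos. Unscaled, Sod2 was the second most abundant gene, with a median of 208 CPM over 10008 exon bases. Prdx3, the mitochondrial peroxiredoxin, had a median of 4.58 CPM (3.10 CPM per kb) and 349 counts in 26 embryos. Cat had 38 counts in all, in 8 embryos, and no count in the other 23. Prdx6 and Prdx3 differed by less than the SD (2.50 against 2.63 on the log2 scale), while Prdx3 lay above Cat in 24 embryos by 3.49 ± 2.49 (SD, n = 31). A small offset was added to each level per kb before these log2 differences were taken. Where a gene had no count, as Cat in 23 embryos, the size of the difference depends on that offset.

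Within each embryo, Prdx2 made up a median of 50.8% of the summed CPM of the 6 peroxiredoxins, with a range of 32.4% to 75.6%. Prdx1 made up 21.2% (7.56% to 53.2%), Prdx4 12.4% (0% to 27.5%), Prdx5 7.28% (0.0606% to 31.2%) and Prdx6 6.49% (0.636% to 18.5%). The share of Prdx3 had a median of 0.401% and never exceeded 3.23%. The make-up of the family thus varied widely between embryos of the same group.

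**Figure D1:**
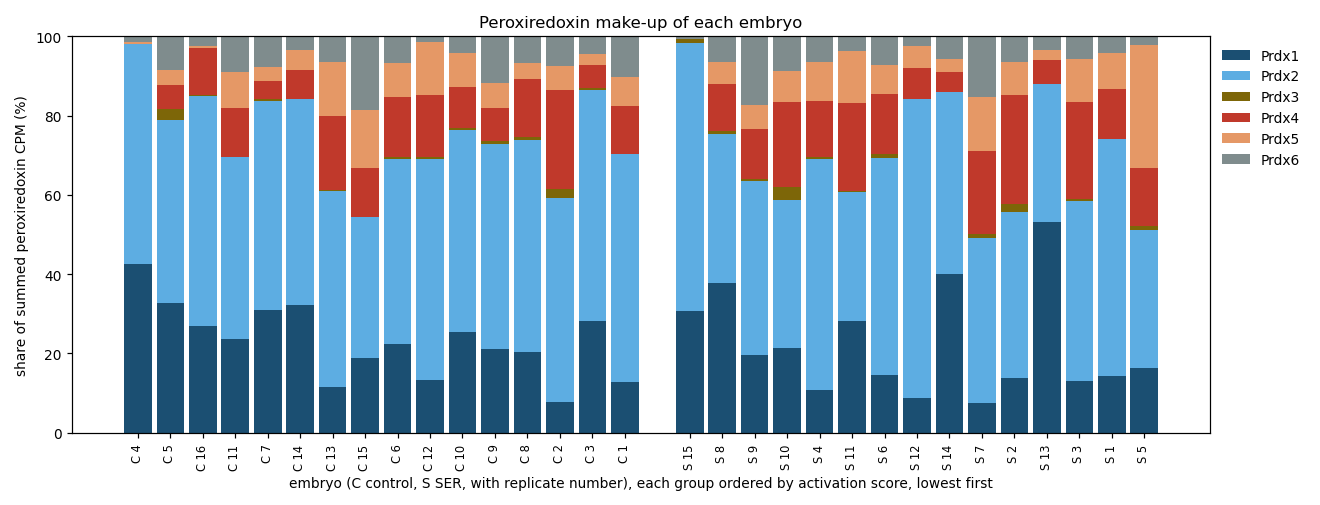
Stacked bars give the share of each peroxiredoxin in the summed peroxiredoxin CPM of an embryo (y axis, percent), with the control embryos on the left and the SER embryos on the right, each ordered by the zygotic activation score from low to high. Prdx2 takes 32.4% to 75.6% of each bar, and the Prdx4 segment is missing from the first bar of each group.

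Some of these counts can hold reads of other loci. On GRCm38 (GENCODE vM21), Prdx2 lies on the plus strand of chr8:84969587-84974834 and shares 173 exon bases with Junb and 177 with Rnaseh2a, both on the other strand, whose median levels were 1.51 and 16.9 CPM. Prdx5 (chr19:6906697-6910106, minus strand) shares 409 exon bases with Trmt112, whose median was 67.7 CPM against 72.3 CPM for Prdx5. The counting is not stated to use strand, so the reads of such overlaps cannot be assigned. Transcripts at least 95% identical over 200 or more bases exist for Prdx5 (Trmt112, the gene of the overlap above and a row of the table), Prdx1 (2), Prdx2, Txn1 and Sod1 (1 each). Apart from Trmt112, all of them are from loci that are not rows of the table. The Prdx6 copy Prdx6b had 14 counts in 7 embryos.

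Prdx4 was not detected in the 2 embryos with few zygotic transcripts. It had 0 of 662768 counts in control replicate 4 and 0 of 2567720 in SER replicate 15, which allows levels of up to 4.53 and 1.17 CPM, counting error only. In the other 29 embryos it ranged from 43.2 to 337 CPM with a median of 133 CPM. Prdx4 lies at chrX:155323918-155340754 on the minus strand. Among 1744 genes whose median over the other embryos was at least that of Prdx4, 42 had no count in these 2 embryos.

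Prdx5 was at 9.05 CPM in control replicate 4 and at 0.779 CPM (2 counts) in SER replicate 15, while the others ranged from 8.74 to 202 CPM with a median of 75.1 CPM. Prdx6 was at 25.7 and 8.18 CPM against 9.16 to 229 CPM, and Sod2 at 101 and 31.5 CPM against 67.0 to 635 CPM. SER replicate 15 was thus the lowest of all embryos for Prdx5, Prdx6 and Sod2, whereas control replicate 4 lay within the range of the others for these 3 genes. The cytosolic pair was at the other end: Prdx1 stood at 779 and 396 CPM, above 27 and 23 of the 29 others (median 194 CPM), and Prdx2 at 1008 and 866 CPM, above 27 and 26 of them (median 519 CPM). Lower levels were common in these 2 embryos, since 858 of 4107 genes with a median of at least 50 CPM (20.9%) lay below every other embryo in both, and 122 (2.97%) had no count in both. Their oocyte marker sums were 4701 and 6471 CPM. These are descriptions of 2 embryos that were singled out by their zygotic genes.

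The next question was how the enzymes varied with zygotic activation across all embryos. An activation score was made for each embryo as the mean standardized log2 CPM of 26 zygotic genes, none of them among the 10, and scaled to an SD of 1. It was −3.37 and −2.80 in the 2 embryos and −1.02 to 1.28 in the others, and did not separate the groups (−0.019 ± 1.04 in control and 0.020 ± 0.995 in SER embryos, SD, permutation p = 0.914). In an edgeR quasi-likelihood fit with group as a covariate, Prdx4 rose by 1.17 on the log2 scale per SD of score (SE 0.25, adjusted p = 0.00050). Prdx5 rose by 0.90 (SE 0.20, adjusted p = 0.00067), Sod2 by 0.54 (SE 0.13, adjusted p = 0.0017), Prdx6 by 0.47 (SE 0.19, adjusted p = 0.0584) and Sod1 by 0.32 (SE 0.12, adjusted p = 0.0435), at a threshold of 0.1. Thus 5 of the 8 genes that passed the filter on low counts were called, all of them higher with the score, where 43.3% of all 8545 genes tested were called and 25.5% were called higher. Txn1 (0.25, adjusted p = 0.414), Prdx1 (−0.15, adjusted p = 0.458) and Prdx2 (−0.01, adjusted p = 0.960) did not pass. With limma voom and sample quality weights, which called 34.9% of all genes, Prdx1 fell with the score (−0.61, adjusted p = 0.0016), and Prdx4, Prdx5 and Sod2 again rose.

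Several slopes changed without the 2 embryos. Prdx4, whose 2 zeros were then gone, still rose by 0.56 per SD of score (adjusted p = 0.0705), Prdx5 by 0.59 (0.0923), Sod2 by 0.72 (0.0180) and Sod1 by 0.61 (0.0447), while Prdx6 (0.27, adjusted p = 0.556) no longer passed and Prdx2 did (0.58, adjusted p = 0.0851). Prdx1 was at 0.31 (adjusted p = 0.516) and Txn1 at 0.32 (adjusted p = 0.595). This made 5 of 8 genes called, against 21.0% of all genes called and 14.0% called higher in the 29 embryos. Within the groups, the slope of Prdx4 was 1.503 in control embryos (adjusted p = 0.00028) and 0.79 in SER embryos (adjusted p = 0.232), that of Prdx5 0.88 and 0.93 (adjusted p = 0.0167 and 0.0708), and that of Sod2 0.43 and 0.77 (adjusted p = 0.0542 and 0.0418). Whether the slopes differ between the groups was tested with an interaction term, which called 0 of 8545 genes (452 at an unadjusted p under 0.05) and gave adjusted p-values from 0.987 to 0.994 for the 8 genes. The score, the members and the oocyte markers are shares of the same libraries, and the part of this in the slopes was not tested.

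**Figure D2:**
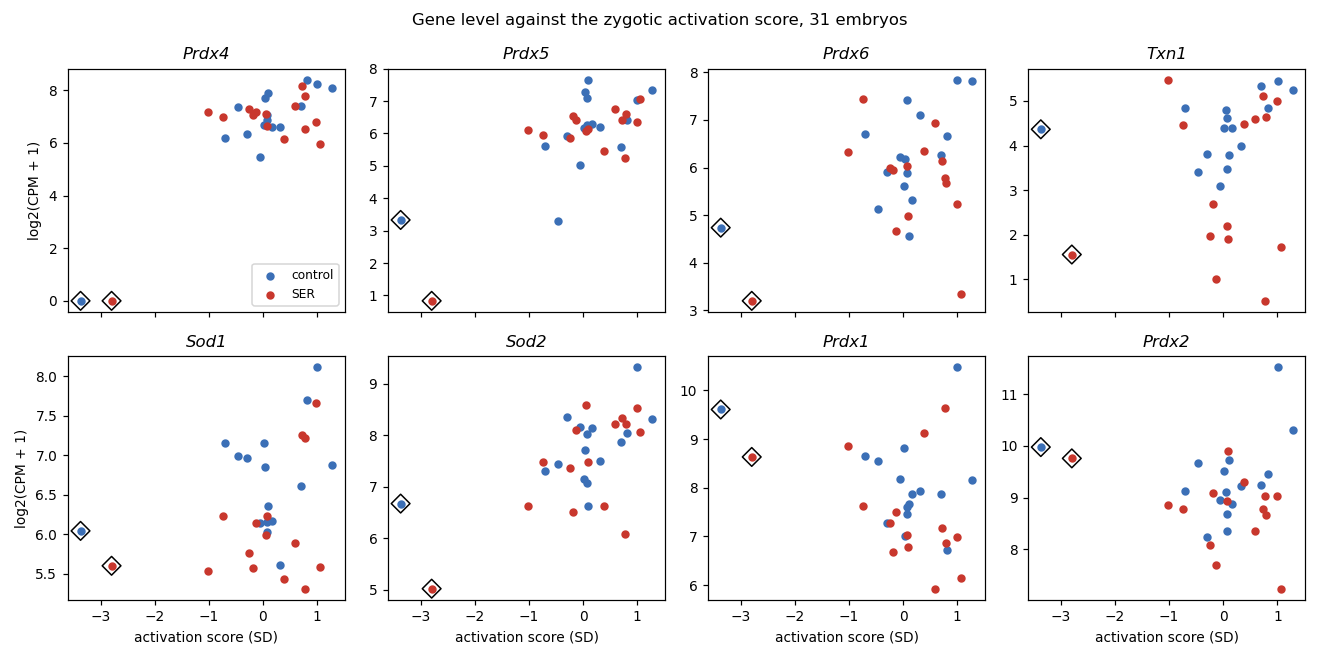
Each panel plots log2(CPM + 1) of a gene against the zygotic activation score in SD for the 16 control (blue) and 15 SER (red) embryos, and open diamonds mark control replicate 4 and SER replicate 15 at scores of −3.37 and −2.80. Prdx4 and Prdx5 drop in the marked embryos, with Prdx4 at 0 in both, while Prdx1 and Prdx2 do not.

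The main comparison of the study asked whether SER of the sperm alters transcripts of the embryo. The summed CPM of the 10 genes was 1115 to 5982 in control embryos (median 1529) and 747 to 1603 in SER embryos (median 1355). Fitted log2 folds of all 8 genes that passed the filter were below 0, from −0.83 to −0.26 with a median of −0.65, but no gene passed the adjusted threshold. A lower estimate was given to 47.3% of all 8571 genes tested, whose median was 0.02. edgeR called 0 genes of the table (0%) at an adjusted p under 0.1, and 491 (5.73%) had an unadjusted p under 0.05, among them 2 of the 8, Prdx2 and Sod1. The study itself, which corrected for batch and used DESeq2, did report differentially expressed genes at this adjusted threshold. The 8 genes are correlated within embryos, so their directions are not 8 separate observations. Other fits called more of the table, with calls among the 10 genes near the shares of all genes. DESeq2 called 0.572% of the genes, edgeR with 3 estimated clusters of embryos as a covariate 0.478%, and edgeR with no filter on low counts 2.83%, or 3.33% without the 2 embryos of low score, and none of the 10 genes was among them. limma voom with sample quality weights called 9.89%, with Prdx1 as the only one of the set (−0.69, adjusted p = 0.0862).

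**Figure D3:**
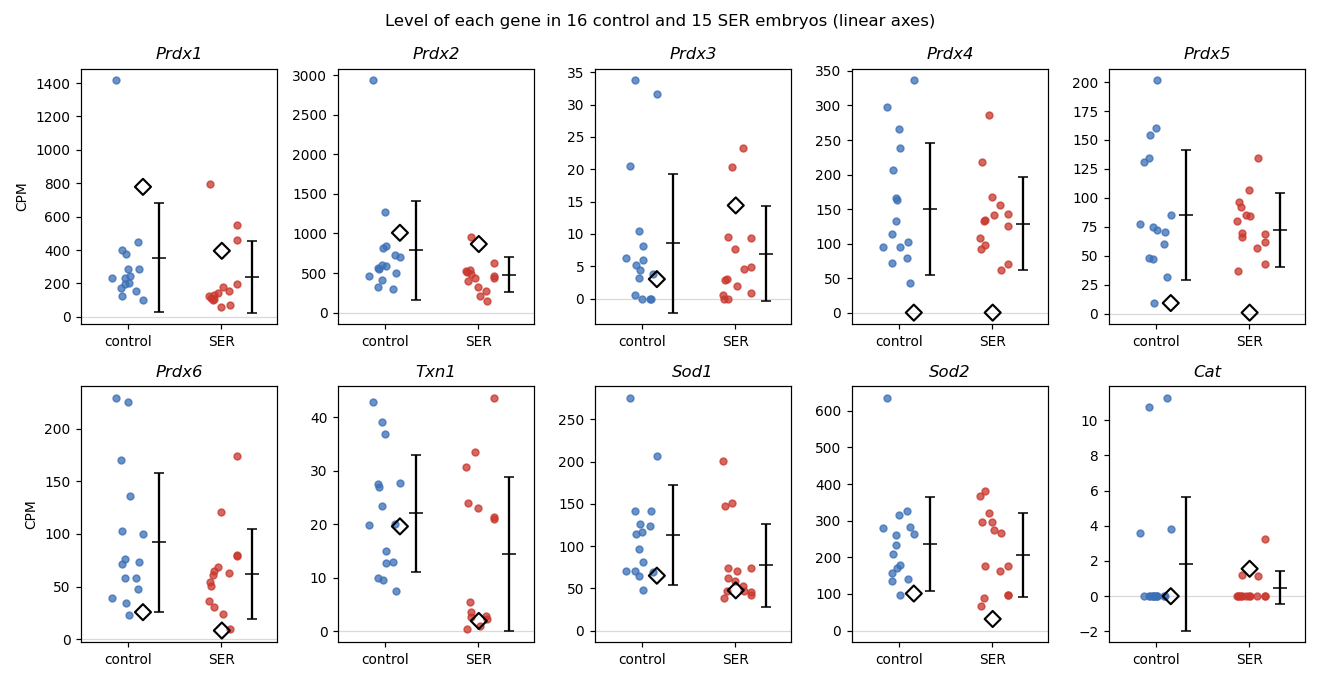
Each panel plots the level of a gene in CPM (y axis, linear) in the 16 control (blue) and 15 SER (red) embryos, with the mean and SD as a tick and bar beside the points and control replicate 4 and SER replicate 15 as open diamonds. The ranges of the groups overlap for every gene, 1 control embryo at 2935 CPM stands above the others for Prdx2, and 8 SER embryos lie at or under 5.44 CPM for Txn1.

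Among the cytosolic peroxiredoxins, Prdx2 had the smallest p. Its level was 299 to 2935 CPM in control embryos (median 600, mean 788 ± 625, SD, n = 16) and 150 to 955 CPM in SER embryos (median 461, mean 481 ± 218, SD, n = 15). The groups overlapped, with 12 of 15 SER embryos below the control median and 3 below every control embryo. Its log2 fold change was −0.83 (SE 0.30, 95% interval −1.44 to −0.21, edgeR unadjusted p = 0.00994, adjusted p = 0.692, or 0.125 to 1.00 over the alternative fits), and a permutation test of mean CPM gave p = 0.0423. This test was run on all 10 genes and the others had p-values from 0.0764 to 0.629.

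Control replicate 3 held the highest Prdx2 level at 2935 CPM, with 1265 CPM in the next embryo, and was also the highest of all embryos for Prdx1, Prdx6, Sod1 and Sod2. It had the second highest sum of oocyte markers, 6306 CPM. Without it the log2 fold of Prdx2 was −0.46 (unadjusted p = 0.0637, adjusted p = 0.997) and its mean was 644 ± 260 CPM in control embryos (permutation p = 0.0728). The log2 folds of Prdx1 (−0.26), Sod2 (−0.05), Prdx5 (−0.23), Prdx4 (−0.18), Prdx6 (−0.49), Sod1 (−0.43) and Txn1 (−0.56) also came closer to 0, all still below it.

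Prdx1 ranged from 104 to 1417 CPM in control (median 239) and from 59.8 to 796 CPM in SER embryos (median 143), with means of 354 ± 327 and 240 ± 214 CPM. Its log2 fold change was −0.67 (SE 0.39, 95% interval −1.47 to 0.12, adjusted p = 0.891). The highest SER embryo was SER replicate 13, the embryo with the highest sum of macrophage markers, and without it the log2 fold was −0.94. The log2 ratio of Prdx1 to Prdx2 within embryos, which does not depend on the library total, was −1.26 ± 0.668 in control and −1.28 ± 1.04 in SER embryos, a difference of −0.03 (SE 0.32, permutation p = 0.933). Prdx1 exceeded Prdx2 in 2 of 31 embryos.

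For the peroxiredoxins of the organelles no fold was distinguishable from 0. Prdx4 ranged from 0 to 337 CPM in control (median 124) and from 0 to 286 CPM in SER embryos (median 132), with a log2 fold change of −0.31 (SE 0.44, 95% interval −1.20 to 0.58, adjusted p = 0.968). Prdx5 ranged from 8.74 to 202 CPM (median 73.7) and from 0.779 to 134 CPM (median 69.9), with a log2 fold of −0.30 (SE 0.38, 95% interval −1.07 to 0.47, adjusted p = 0.968). The intervals of both genes include changes of 1 log2 unit downwards, and under limma voom with sample quality weights both estimates were above 0, at 0.38 for Prdx4 and 0.25 for Prdx5 (adjusted p = 0.489 and 0.607). Prdx3, too low for the filter, was at 0 to 33.8 CPM in control (median 4.75, 3 embryos at 0) and at 0 to 23.3 CPM in SER embryos (median 4.58, 2 embryos at 0), and a fit of all 17803 genes with a count gave −0.32 (SE 0.71, 95% interval −1.75 to 1.11, adjusted p = 0.932). Its highest level, 33.8 CPM, was in control replicate 5, the embryo with high Hsd3b1 and Cyp11a1, and without that embryo the log2 fold was −0.06.

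Prdx6 was at 22.6 to 229 CPM in control (median 72.5, mean 91.9 ± 66.1) and at 8.18 to 174 CPM in SER embryos (median 60.6, mean 61.6 ± 42.8). The log2 fold was −0.68 (SE 0.37, 95% interval −1.43 to 0.07, adjusted p = 0.869). The range of the SER embryos thus covered most of the control range.

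Txn1 encodes the protein that recycles most peroxiredoxins. Control embryos held 7.51 to 42.9 CPM (median 20.0), in which the lowest value was 4 counts. SER embryos held 0.435 to 43.6 CPM (median 5.44): 8 of 15 had 1 to 9 counts and lay at or under 5.44 CPM, below every control embryo, and the other 7 lay between 20.9 and 43.6 CPM, within or just above the control range. SER replicate 8, with 28 of 642321 counts, was the highest of all embryos. The 8 low embryos were SER replicates 4 to 6, 10 to 13 and 15, and the other 7 were replicates 1 to 3, 7 to 9 and 14. Low and high embryos thus came in runs of neighbouring numbers. The labels do not tie the numbers to a batch, and the part of batch in this split was not tested. At least as many SER embryos below every control embryo were found for 20 of 8571 genes tested (0.233%), and at least as many above for 20.

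The log2 fold of Txn1 was −0.69 (SE 0.48, 95% interval −1.67 to 0.29, adjusted p = 0.935), and means of 22.0 ± 10.9 and 14.5 ± 14.3 CPM gave a permutation p of 0.109. The spread within groups was compared with limma on the absolute deviation of log2 CPM from the group median. The mean deviation of Txn1 was 0.613 in control and 1.41 in SER embryos, a difference of 0.80 (SE 0.29, unadjusted p = 0.0084, adjusted p = 1.00). No gene of 8571 passed an adjusted p of 0.1 in this test, with 255 (2.98%) at an unadjusted p under 0.05, and among the 8 genes only Txn1 was under that value. With every library thinned to the smallest, the difference was 0.37 (unadjusted p = 0.148). For Prdx4 and Prdx5 the mean deviation without the 2 embryos was 0.729 and 0.780 in control against 0.412 and 0.383 in SER embryos (unadjusted p = 0.0915 and 0.0642, adjusted p = 0.961 for both).

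The superoxide dismutases supply the hydrogen peroxide that the others remove. Sod1 was at 47.8 to 275 CPM in control (median 105, mean 113 ± 59.3) and at 38.7 to 201 CPM in SER embryos (median 58.1, mean 77.2 ± 48.8), where 12 of 15 lay below the control median and 6 below every control embryo. Its log2 fold change was −0.63 (SE 0.28, 95% interval −1.20 to −0.06, unadjusted p = 0.0308, adjusted p = 0.809), and the permutation test of CPM gave p = 0.0764. Over the alternative fits the log2 fold of Sod1 ranged from −0.82 to −0.15, the latter with limma voom (unadjusted p = 0.532). With 1 embryo left out, edgeR gave −0.80 without SER replicate 1 (unadjusted p = 0.00544) to −0.43 without control replicate 3 (unadjusted p = 0.104). Sod2 was at 97.4 to 635 CPM (median 220) and 31.5 to 382 CPM (median 177), with a log2 fold of −0.26 (SE 0.30, 95% interval −0.87 to 0.35, adjusted p = 0.962). The log2 ratio of Sod1 to Sod2 was −1.05 ± 0.700 in control and −1.32 ± 0.800 in SER embryos, a difference of −0.27 (SE 0.27, permutation p = 0.321). In CPM, Sod1 exceeded Sod2 in 1 of 31 embryos. These values are not scaled to exon length, and per kb the medians were 17.8 CPM for Sod1 and 20.8 CPM for Sod2.

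Catalase gave too few counts for a comparison. It was at 0 in 12 of 16 control and 11 of 15 SER embryos, with highest levels of 11.3 and 3.24 CPM, and the fit of all genes gave −1.64 (SE 1.01, 95% interval −3.68 to 0.39, adjusted p = 0.611). The 2 highest levels, 11.3 and 10.7 CPM, were in control replicates 7 and 5, and without control replicate 5 the log2 fold was −1.15.

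**Figure D4:**
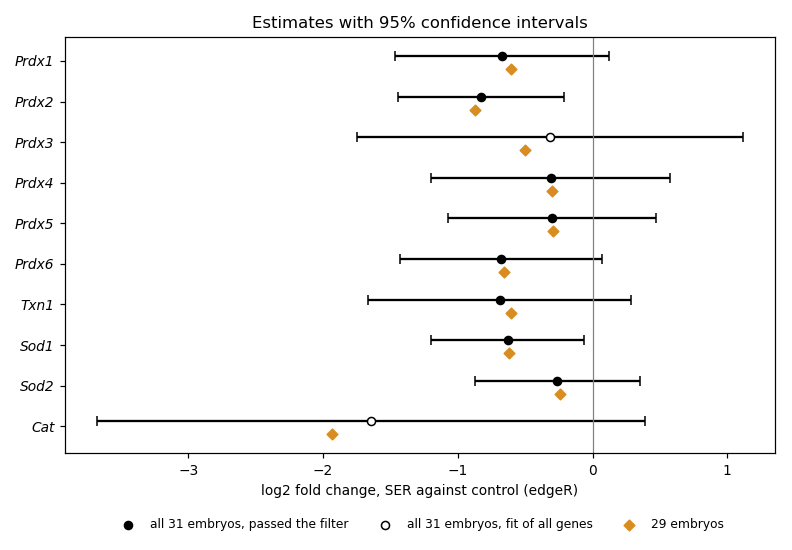
Points give the log2 fold change of SER against control embryos from edgeR (x axis), and bars its 95% confidence interval. Filled circles are genes that passed the filter, open circles are Prdx3 and Cat from the fit of all genes, and diamonds are estimates from the 29 embryos without control replicate 4 and SER replicate 15. All 10 estimates from edgeR lie below 0, and the intervals of Prdx2 and Sod1 alone exclude 0 before adjustment.

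Enzymes of the set varied together only in part. Over the 31 embryos, 5 of the 28 pairs of the 8 tested genes had a Spearman correlation of log2 CPM over 0.5: Prdx4 with Prdx5 (0.611), Txn1 with Sod1 (0.565), Prdx6 with Txn1 (0.532), Sod1 with Sod2 (0.529) and Prdx1 with Prdx2 (0.524). In the 29 embryos these were 0.536, 0.543, 0.520, 0.514 and 0.444. Prdx1 ran against Prdx5 (−0.477, or −0.409 in the 29) and Sod2 (−0.383, or −0.308). Values within a library share its depth and its total.

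The genes whose levels were most like each enzyme were sought among all tested genes. Prdx1 was most like Ube2d3 (Spearman correlation 0.892 over 31 embryos, 0.871 over 29) and Btg4 (0.861 and 0.842), a gene known for its part in the clearance of maternal RNA. Prdx2 was most like Skp1a (0.838 and 0.804) and Itgb1bp1 (0.818 and 0.838). Prdx5 was most like Ndufa2 (0.867 and 0.840), a subunit of respiratory complex I, and Snrpd2 (0.856 and 0.826), a core spliceosome protein. Prdx4 was most like Prps1 (0.792 and 0.746) and Ndufb11 (0.790 and 0.782), also a subunit of complex I. Sod2 was most like Gadd45b (0.832 and 0.807) and Xpnpep1 (0.831 and 0.809). Likeness was lower for Prdx6 (Hilpda 0.766 and Glrx3 0.697), Sod1 (Cops9 0.725 and Cox7a2 0.680) and Txn1 (Orc6 0.683 and Hcfc1r1 0.662).

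Genes that work around these enzymes had estimates on both sides of 0, and edgeR with the filter called none of them between the groups. Other fits called Ggct, Glrx, Sesn3 and Foxo3, all lower in SER embryos, as given below. The fit with no filter also called Cybb, a subunit of the phagocyte NADPH oxidase that is too low for the filter (−3.23, adjusted p = 0.0649), which is named after its values were seen. With the activation score, 25.5% of all genes were called higher and 17.8% lower over the 31 embryos, and 14.0% and 6.95% over the 29, and the counts of each list are read against these shares. Of the thioredoxin cycle (thioredoxin reductases, sulfiredoxin, sestrins and methionine sulfoxide reductases), 10 of 14 genes were tested, 5 with higher and 5 with lower estimates. Those with the smallest p were the mitochondrial thioredoxin gene Txn2 (−0.32 on the log2 scale, adjusted p = 0.936), the thioredoxin reductase gene Txnrd1 (0.63, adjusted p = 0.936) and Sesn3 (−0.42, adjusted p = 0.951). Under limma voom with sample quality weights Txnrd1 turned to −0.97 (adjusted p = 0.241) and Sesn3 was called (−1.03, adjusted p = 0.0721). With the activation score, 2 of the 10 were called higher, near the share of all genes, and 4 lower, and 1 higher and 0 lower without the 2 embryos.

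In the glutathione arm, 4 of 12 tested genes had higher and 8 lower estimates. Ggct, whose enzyme breaks down gamma-glutamyl dipeptides of the glutathione cycle, was at 1259 ± 942 CPM in control and 544 ± 183 CPM in SER embryos, a difference of −1.30 on the log2 scale (SE 0.28, adjusted p = 0.178 in the edgeR fit). Ggct was called in 6 of 11 alternative fits, among them DESeq2 (adjusted p = 0.0177), limma voom with sample quality weights (0.0021), edgeR with 3 estimated clusters (0.0172) and edgeR with no filter (0.0641), with log2 folds from −1.32 to −1.01 over all 11. Gss, the glutathione synthetase, was at 0.72 (adjusted p = 0.928) and Glrx, a glutaredoxin, at −0.79 (adjusted p = 0.935). The estimate of Glrx depended on the fit, from −2.32 to −0.79 over the alternatives, and it was called with DESeq2 (−1.93, adjusted p = 0.0585), limma voom (−1.73, adjusted p = 0.0519) and edgeR with no filter without the 2 embryos (−1.66, adjusted p = 0.0860). With the activation score 4 of the 12 were called higher and 2 lower, and 1 and 0 without the 2 embryos, all near the shares of all genes or below them.

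Of the partners of the superoxide dismutases, 3 were tested. The copper chaperone Atox1 was at 36.3 ± 22.5 CPM in control and 21.4 ± 13.7 CPM in SER embryos (−0.82, SE 0.37, unadjusted p = 0.0348, adjusted p = 0.809). Ccs, which inserts copper into SOD1, was at 0.46 (adjusted p = 0.968) and the copper transporter gene Slc31a1 at 0.03 (adjusted p = 0.993), and the sign of both changed in at least 1 alternative fit. All 3 were called higher with the activation score (25.5% of all genes), Ccs with a slope of 1.63 (adjusted p = 0.0011), and 2 of them without the 2 embryos (14.0% of all genes), where Ccs had a slope of 1.35 (adjusted p = 0.0486).

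The peroxisomal import genes, through which catalase reaches its organelle, gave 3 higher and 6 lower estimates of 9, with Pex5 at 0.44, Pex13 at −0.16 and Pex3 at −0.13 (adjusted p = 0.958, 0.981 and 0.981). With the score 1 of the 9 was called higher and 4 lower (25.5% and 17.8% of all genes), and none without the 2 embryos. Under limma voom Pex5 and Pex3 changed sign, to −0.44 and 0.30. Of 6 tested sources of oxidants, 4 had higher and 2 lower estimates, including Ero1lb (0.39) and Xdh (0.68, but −1.17 with limma voom and −0.60 with 3 clusters), and 1 was called higher with the score over 31 embryos and 0 over 29. Of 10 redox regulators, 7 had higher and 3 lower estimates. Nfe2l1, a relative of NFE2L2, was at 210 ± 81.6 CPM in control and 283 ± 100.01 CPM in SER embryos (0.42, unadjusted p = 0.0551, adjusted p = 0.869), Bach1, a repressor at antioxidant response elements, was at 0.43 (adjusted p = 0.935), and Foxo3 at −0.44 (adjusted p = 0.936), or −0.79 with limma voom, which called it (adjusted p = 0.0849). Foxo3 fell with the activation score, with slopes of −0.68 over 31 (adjusted p = 0.00040) and −0.96 over 29 embryos (adjusted p = 0.0243), and so did Nfe2l1, with −0.28 (adjusted p = 0.0365) and −0.57 (adjusted p = 0.0373). They were 2 of 3 regulators called lower, in both sets of embryos, where 17.8% and 6.95% of all genes were called lower, and none of the 10 was called higher.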

How the data were processed

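Single-embryo Smart-seq3 libraries were sequenced in 16 control- and 15 SER-generated embryos. The authors removed duplicates by molecular identifier from 5′ reads and with Picard from internal reads, aligned with STAR to mm10, and assigned the reads to genes with featureCounts. What they deposited are raw counts. The annotation, strand setting and versions are not given in the sources used here. Every embryo was matched to its group by title.

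Counts were fitted with edgeR 4.0.16 in R 4.3.3 (TMM, filterByExpr with a minimum of 10, quasi-likelihood test). P-values were adjusted by Benjamini-Hochberg across the 8571 genes kept, at a threshold of 0.1, the one used by the study. The study corrected for batch, which could not be repeated. Spread was tested with limma 3.58.1 (log2 CPM, prior count 2). Permutation tests of CPM were 2-sided with 100000 resamples, as were those of ratios (pseudocount 1). Log2 folds of low genes depend on the prior count. Scripts were tested on simulated data. The depth, 532945 to 3088396 counts, makes 1 count worth 0.324 to 1.88 CPM. Alternatives included DESeq2 1.42.0, limma voom, a replicate block, other filters, thinning and leaving out embryos.

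The 10 genes and the gene lists were chosen with earlier results of these data known. All 10 are named. From each pathway list the 3 tested genes with the smallest p are named (1 gene of the oxidant sources is not reported here), and for likeness the 2 genes with the highest correlation. Nfe2l1, Foxo3 and Ccs are described further because they are among these. Copies were sought with blastn 2.17.0.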

Additional observations from a re-analysis of the deposited data

How the results depend on the processing

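The count of genes called between the groups was 0 in the main fit and with any 1 embryo left out (0 to 0 over 31 fits), but 504 with no filter on low counts, 49 with DESeq2, 848 with limma voom and sample quality weights, and 41 with 3 estimated clusters of embryos as a covariate. With no filter it was 590 without the 2 embryos of low activation score and 326 without control replicate 5, both chosen after seeing the data. The causes were not tested. None of the 10 genes was called under these settings except Prdx1 with limma voom (1 gene, −0.69, adjusted p = 0.0862), where 9.89% of genes were called. There Prdx4 (0.38) and Prdx5 (0.25) turned above 0. The other 354 of 356 fold changes of the 10 genes over all alternatives stayed below 0. Of these, 248 came from fits with 1 embryo left out, which share nearly all embryos. The stricter threshold of 0.05 repeats the main estimates. The count is therefore not separate support for lower levels. The lower mean CPM of Prdx2, the 1 gene with a permutation p under 0.05, passed in 15 of 31 sets with 1 embryo left out (p from 0.0175 to 0.0781), and the count was 0 without control replicate 3.

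Genes called for the slope on the activation score numbered 3698, and 1792 without the 2 embryos, 2331 in control embryos only, 1314 in SER embryos only and 938 with 3 clusters. Of the 8 enzymes 5 were called in the main fit and 2 in SER embryos only, Prdx5 and Sod2. With 3 clusters 1 was called, Prdx2 (adjusted p = 0.0388), which is not among the 5 of the main fit. None of those 5 was called with 3 clusters. The slope of Prdx2 turned above 0 without the 2 embryos (0.58), in control embryos only (0.14) and with 3 clusters (0.76), and that of Prdx1 without the 2 embryos (0.31) and with 3 clusters (0.63). The difference in the ratio of Prdx1 to Prdx2 moved from −0.03 to 0.021 without them.

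The groups share replicate numbers, which the labels do not tie to a batch, litter or day. The 15 pairs with the same number had correlations of −0.368 to 0.494 (median 0.113), 8 of them over 0.1, and 6 of 30 embryos correlated best with their own number. The numbers were not taken as pairs, since not every pair was over 0.1, and a shared batch behind some of them cannot be told apart. With the replicate number as a block edgeR called 0 genes, and 311 of 8571 had an unadjusted p under 0.05. The smallest p-values of the 8 genes were those of Txn1 (−1.43, unadjusted p = 0.0132), Sod1 (−0.61, 0.0148) and Prdx2 (−0.61, 0.0395), with an adjusted p of 0.9998 for each. The depth limits Cat, Prdx3 and Txn1, for which a few counts decide a level.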
